A study of Drosophila melanogaster with 3 samples.

Results

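The genes described are ush, its neighbour cbt, and the 5 genes of GATA transcription factors in the fly, pnr, srp, grn, GATAd and GATAe. These 7 of 13945 protein-coding genes were taken by symbol as a regulatory group, and ush was chosen by its measured values, for its 14 summits and for a peak of the third highest signal whose nearest transcription start site (TSS) is that of cbt. All 7 symbols were found in the gene models. A gene's region was its body plus 5 kb upstream, and the 7 regions held 17 distinct thresholded summits and 78 distinct relaxed ones.

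Binding of Pdp1, a PAR-domain basic leucine zipper transcription factor, was mapped by chromatin immunoprecipitation followed by sequencing (ChIP-seq) in whole Drosophila melanogaster embryos. The single group of 3 biological replicates came from the strain Pdp1-MiMIC-GFP, in which an eGFP exon placed in an intron makes a fusion protein from the endogenous Pdp1 gene. Embryos of both sexes, 0-24 hours old, were used, and the antibody recognised GFP. No second genotype, age or treatment and no list from untagged embryos was analysed, so every value below describes tagged embryos of mixed age and mixed cell types, and which cells carried a peak cannot be told apart.

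The protein U-shaped, encoded by ush, is the fly member of the Friend of GATA (FOG) family, zinc finger proteins that act through GATA factors rather than by a DNA sequence of their own. It binds Pannier, the product of pnr, in the dorsal ectoderm, the heart and the notum, and Serpent, the product of srp, in blood cells. Its effect on a target gene can be repression or activation, depending on the tissue. The gene cbt (cabut) encodes a zinc finger factor of the Sp/KLF family known from dorsal closure and from the response to dietary sugar. These relations are background, since no binding of a GATA factor or of U-shaped was measured here.

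Sequences around 6 summits and 1 relaxed peak are printed first, for the motif search described further below. They were read from the plus strand of the Release 6 genome sequence (RefSeq, build dm6), and capitals mark GATA hexamers, defined as AGATAA or its variant AGATAG, and likewise TGATAA or its variant TGATAG, on either strand. The strongest peak is shown over 251 bp and the others over 101 bp, centred on the summit. Summits along ush are numbered 1 to 15 from left to right.
ush summit 4, the strongest, 2L:480930-481180: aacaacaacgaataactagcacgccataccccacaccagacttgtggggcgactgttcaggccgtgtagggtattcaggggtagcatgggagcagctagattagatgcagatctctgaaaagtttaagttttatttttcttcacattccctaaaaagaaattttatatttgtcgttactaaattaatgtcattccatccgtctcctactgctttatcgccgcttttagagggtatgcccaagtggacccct
ush summit 3, second in signal, 2L:480021-480121: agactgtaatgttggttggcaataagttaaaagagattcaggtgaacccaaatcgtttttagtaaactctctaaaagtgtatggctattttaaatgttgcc
ush summit 12, 2L:520786-520886: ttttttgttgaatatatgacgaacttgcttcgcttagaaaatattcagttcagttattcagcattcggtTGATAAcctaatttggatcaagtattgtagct
ush summit 13, 2L:522113-522213: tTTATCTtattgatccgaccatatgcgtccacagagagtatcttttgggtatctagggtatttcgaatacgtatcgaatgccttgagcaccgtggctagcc
grn summit, 3R:8171637-8171737: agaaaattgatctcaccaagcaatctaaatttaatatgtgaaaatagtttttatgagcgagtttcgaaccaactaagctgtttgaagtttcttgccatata
GATAd summit, 2L:10335039-10335139: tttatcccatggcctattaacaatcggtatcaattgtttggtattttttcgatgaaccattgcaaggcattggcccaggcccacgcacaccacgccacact
srp, relaxed peak just below the threshold, 3R:15984595-15984695: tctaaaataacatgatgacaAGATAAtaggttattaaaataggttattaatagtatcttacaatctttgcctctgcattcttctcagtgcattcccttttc

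Pdp1 peaks were dense along ush (FBgn0003963; dm6, 2L:476220-540560, plus strand). Its 69.34 kb region held 15 thresholded summits, 14 in the gene body and 1 upstream, or 2.16 per 10 kb, against 0.345 per 10 kb over the 6 chromosome arms. In the top 4622 peaks of each replicate list the same region held 15, 14 and 15 summits in replicates 1, 2 and 3, a mean of 14.7 ± 0.577 (SD, n = 3). The counts were close, but not all of the summits were the same, since 10 of the 15 thresholded ones were in all 3 top lists. In the whole lists of 30000 peaks the counts were 50, 32 and 48 (43.3 ± 9.87, n = 3), with replicate 2 the lowest. The thresholded list of 4622 peaks was exactly the part of the pooled relaxed list, 27719 peaks in all, with a signal of at least 101.8. The pooled relaxed list had 44 summits along ush. The relaxed list was deposited under a title naming both peaks and background, so a relaxed summit alone is not shown to be bound. Signal here is the score that the authors' peak caller gave each peak.

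Of all protein-coding genes, 37.7% had at least 1 thresholded summit in their region, and 1 gene, CG1677, had more than ush. Counting only summits in the top lists of both other replicates, 4 genes had more than ush without replicate 1, 0 without replicate 2 and 1 without replicate 3. Among windows of 69.3 kb laid end to end over the arms, 2 of 1928 (0.104%) held at least 15 thresholded summits, with a mean of 2.4 per window. Since ush was selected on its count, these figures place it among genes and test nothing. The windows were added after the values were seen.

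**Figure D1:**
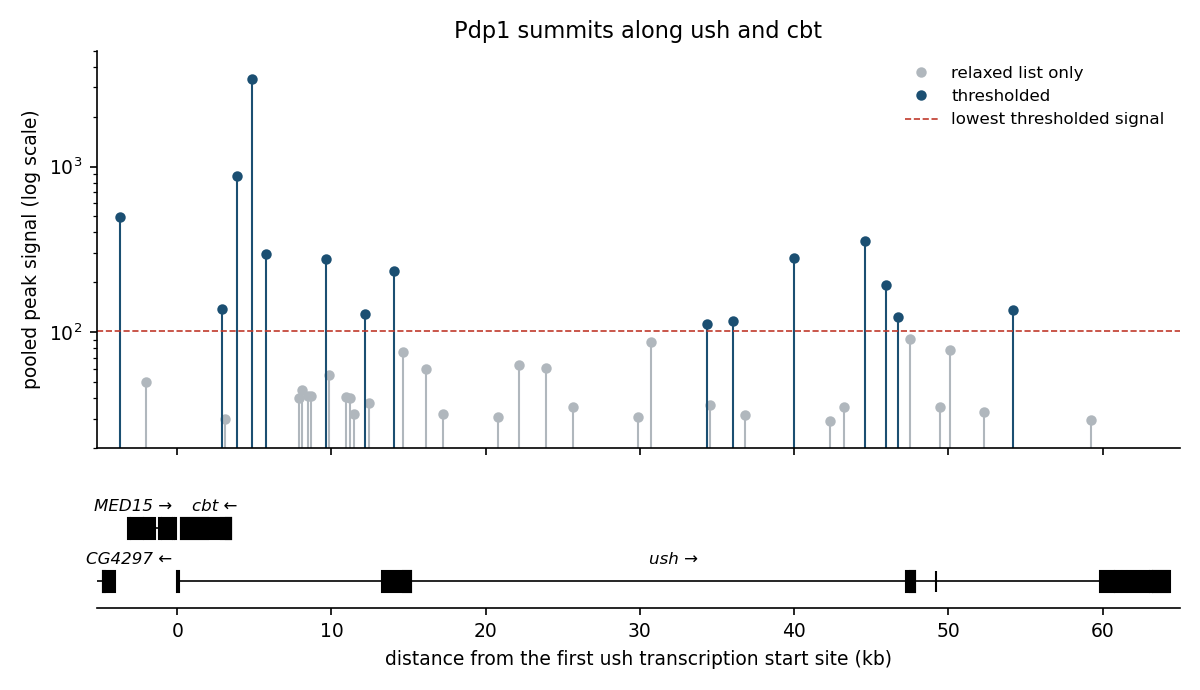
Pooled peak signal (vertical axis, log scale) of each summit against its distance from the first ush TSS in kb, with gene models below (boxes are exons, arrows the direction of transcription). Blue points are the 15 thresholded summits, grey points those of the relaxed list only, and the dashed line marks the lowest thresholded signal, 101.8. The 2 highest points lie just upstream of cbt, and no thresholded summit lies in the 20291 bp between summits 8 and 9.

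The summits were unevenly spaced, with 7 from summit 2 to summit 8 and 7 from summit 9 to summit 15, on either side of a gap of 20291 bp. The annotated ush transcript with the most introns has 8, and its first intron (13.2 kb) held 6 thresholded summits, the second (34 kb) 6 and the third (10.6 kb) 1. The gaps between neighbouring summits ran from 784 to 20291 bp with a median of 2194 bp, and 5 of the 14 gaps were under 1500 bp. Over all thresholded summits the median gap was 10316 bp. By position, 11 of the 15 ush summits were intronic, 2 within 500 bp of a TSS and 2 in a 5' UTR, where all 4622 thresholded summits were 34.2% intronic, 48.8% at promoters and 0.498% in 5' UTRs.

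Neither of the 2 promoter summits belonged to ush itself. Summit 1 lay 281 bp upstream of the TSS of CG4297 and summit 3 lay 383 bp upstream of the TSS of cbt. The 4 annotated ush TSSs, at 0, 14615, 47246 and 47516 bp from the gene's start, had their nearest thresholded summits at 2877 bp downstream and at 577, 519 and 789 bp upstream, respectively. Closer relaxed summits existed at the later start sites. One with a pooled signal of 75.57 was 5 bp from the second, and one with 90.68 was 24 bp from the last.

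The strongest ush peak, at 2L:480859-481340, had its summit at 481055 in the first intron, 4835 bp downstream of the first ush TSS and 1367 bp upstream of the cbt TSS. Its signal was 1238, 1158 and 962.3 in replicates 1, 2 and 3 (1119 ± 142, SD, n = 3), and its rank was 2, 3 and 1 in the lists. The replicate lists are not scaled to each other, and their median signals were 21.3, 15.1 and 15.2. Divided by those medians, the peak stood at 66.1 ± 9.68 times its list's median. Its summit moved by 0, 20 and 21 bp between the pooled and the replicate lists.

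This 1 peak carried a large part of the gene's signal in every replicate. It made up 45.6%, 53.9% and 44.4% of the summed signal of the ush summits found in replicates 1, 2 and 3 (48% ± 5.13, n = 3). These sums covered 15, 12 and 14 summits, so the shares rest on unlike sets. The strongest peak exceeded summit 3, the next in order, 3.67-, 3.53- and 4.21-fold (3.8 ± 0.359, n = 3), so the order of these summits was the same in all 3 lists. Summit 3, at 2L:479865-480265, had 336.9, 327.9 and 228.4 (297.7 ± 60.2, n = 3), with replicate 3 the lowest.

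Summits 2 to 5 stood together over 2851 bp around the 5' end of cbt. Summit 2, at 2L:478892-479301, lay 591 bp downstream of the cbt TSS in its 5' UTR, with 67.35 in replicate 1, 48.75 in replicate 3 and no summit within 100 bp in replicate 2. Summit 5, at 2L:481876-482029 and 2260 bp upstream of the cbt TSS, had 101.3, 78.35 and 103.6 (94.39 ± 13.9, n = 3). The group thus holds the 2 strongest ush summits and also weaker ones. Summit 1, at 2L:472351-472584, reached 179.2, 145.3 and 172.3 (165.6 ± 17.9, n = 3), next after summits 4 and 3. It lies 3739 bp upstream of ush, and the body of MED15, a Mediator subunit gene, lies between it and ush.

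In the rest of intron 1 and the exon after it, 3 further summits were called. Summit 6, at 2L:485818-485919, had 129 in replicate 1 and 140.6 in replicate 3 (134.8 ± 8.15, n = 2) and was not found in replicate 2. Summit 8, at 2L:490185-490287, lay 577 bp upstream of the second ush TSS, in the 5' UTR of longer transcripts. It had 77.65, 91.15 and 40.88 (69.89 ± 26, n = 3), and replicate 3 had the lowest signal. Summit 7, at 2L:488212-488621, was weaker, with 51.29, 29.38 and 46.53 (42.4 ± 11.5, n = 3).

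Summits 11 to 14 lay in intron 2, at 7241, 2630, 1303 and 519 bp upstream of the nearest ush TSS. Summit 12, at 2L:520734-520931, was the strongest of them, with 126.3, 91.44 and 129.6 (115.7 ± 21.1, n = 3). Summit 11, at 2L:516147-516294, had 118.5, 72.38 and 92.34 (94.39 ± 23.1, n = 3). Summit 12 was above summit 11 in each of the 3 lists, although the ranges of the pair overlapped. Summit 13, at 2L:521958-522367, had 86, 45.35 and 65.16 (65.5 ± 20.3, n = 3). Summit 14, at 2L:522742-523151 and 519 bp upstream of the third ush TSS, had 58.32 and 39.84 in replicates 1 and 2 and was not found in replicate 3.

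Summits 9, 10 and 15 were weak, as were summits 7 and 14. Summits 9 and 10 in intron 2 and summit 15 in intron 3 had pooled signals of 112.1, 116.3 and 135.5. Their mean replicate signals were 52.46 ± 11.1 (n = 2), 37.76 ± 4.13 (n = 3) and 43.53 ± 12.3 (n = 3), and summit 9 was not found in replicate 2. The weakest thresholded summit along ush, with 112.1, and the highest one below the threshold, with 90.68, are the values that bound the gene's count. The latter was 1 of 29 relaxed summits along ush that missed the threshold, and their median was 40.1.

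**Figure D2:**
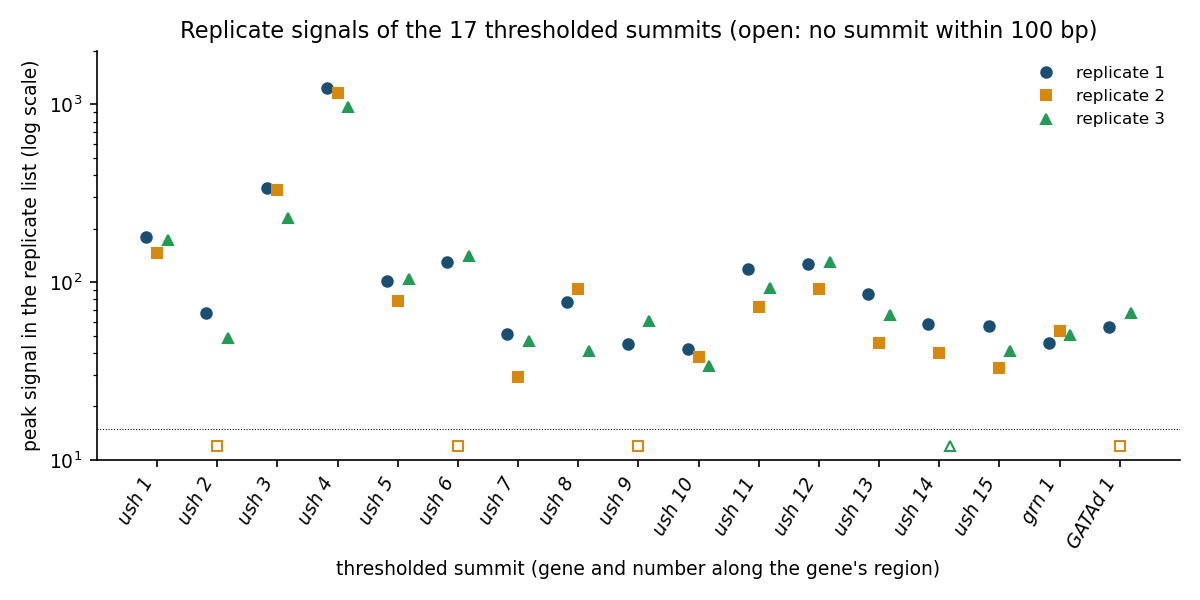
Signal in each replicate list (vertical axis, log scale) of the 17 distinct thresholded summits at ush, cbt, grn and GATAd, with summits ordered along each gene. Circles, squares and triangles are replicates 1, 2 and 3, and open symbols below the dotted line mark a replicate with no summit within 100 bp, 4 times in replicate 2 and 1 time in replicate 3.

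Replicate 2 lacked summits that the other lists had. Of the 15 ush summits it held 12 within 100 bp, where replicates 1 and 3 held 15 and 14. Of the 17 summits, 12 were in all 3 whole lists, where the share over all thresholded summits was 79.8%, and 11 were among the top 4622 of all 3 lists, where the share was 55.2%. For ush alone 10 summits were in all 3 top lists, 4 in the top lists of 2 replicates and summit 10 in 1. Kept to summits in the top lists of both other replicates, ush had 10 without replicate 1, 13 without replicate 2 and 11 without replicate 3.

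Median base composition differed between the summits that replicate 2 lacked and held. The 4 summits it lacked had 38.6% to 48.5% G and C within 50 bp (median 46.5%), and the 13 it held had a median of 32.7%. The groups overlapped, since summits 8 and 13, with 48.5% and 44.6%, were among those replicate 2 held. Over all thresholded summits the medians were 38.6% for the 720 it lacked and 33.7% for the rest. The summit that replicate 3 lacked had 25.7%, and replicate 1 lacked none of the 17. The part of base composition in these absences was not tested. The ush summits as a whole had a median of 33.7%, the same value as all thresholded summits.

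The gene cbt (FBgn0043364; 2L:476446-479688, minus strand) lies wholly inside the first intron of ush and is transcribed in the opposite direction. Its 8.243 kb region held summits 2 to 5, which are counted for both genes, with 1 in the gene body and 3 upstream. This is 4.85 per 10 kb, and no gene with a region under 10 kb had more than 4 thresholded summits. Counting regions of any length, 140 other genes had 4 too, some of them over shorter regions than that of cbt. Among the 10461 genes with regions under 10 kb 32.2% had any summit. The top lists of replicates 1, 2 and 3 had 4, 3 and 4 (3.67 ± 0.577, n = 3). An intronic summit of ush and an upstream summit of cbt are the same measurement here, and the peak lists do not assign it to either gene.

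The GATA factor genes had 0 or 1 thresholded summit. Of the 5, grn and GATAd had 1 thresholded summit each and pnr, srp and GATAe had 0, beside 37.7% of all protein-coding genes with at least 1. Among regions of like length a summit was present at 50.4% of 2125 genes at 10 to 20 kb (GATAd and GATAe) and 59.1% of 817 at 20 to 40 kb (pnr, srp and grn). These length classes were added after the values were seen, and 5 genes are too few to place the group above or below these shares.

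The factor Grain, encoded by grn (FBgn0001138; 3R:8147368-8181444, minus strand), is known for organ shape and axon guidance. Its summit, in the peak at 3R:8171482-8171891, lay in intron 2, 9757 bp from the TSS. Its signal was 45.53, 52.87 and 50.43 in replicates 1, 2 and 3 (49.61 ± 3.74, n = 3), and 147.9 in the pooled list. Divided by the list medians, the signals were 2.14, 3.51 and 3.31 (2.99 ± 0.741, n = 3), lowest in replicate 1. The summit was in the top list of every replicate. The region's top-list counts were 1, 1 and 2 over 39.08 kb.

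The gene GATAd (FBgn0032223; 2L:10333734-10339185, plus strand) had its summit in the peak at 2L:10334884-10335293, in intron 1, 1355 bp from the first TSS and 1175 bp from the second. Signals were 55.62 in replicate 1 and 66.58 in replicate 3 (61.1 ± 7.75, n = 2), with a pooled signal of 147.4. Replicate 2 had no summit anywhere in the 10.45 kb region, where the whole lists of replicates 1 and 3 had 3 and 4. The GATAd count therefore rests on replicates 1 and 3, and grn is the 1 GATA factor gene with a summit in all 3 top lists.

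The genes srp, GATAe and pnr are neighbours and had no thresholded summit between them. Serpent, encoded by srp (FBgn0003507; 3R:15986152-16004085), is needed for blood cells, fat body and endoderm. GATAe (FBgn0038391; 3R:16009105-16019133) acts in endoderm differentiation, and pnr (FBgn0003117; 3R:16026079-16041796) in the dorsal ectoderm and heart. All 3 are on the plus strand. Their regions together span 3R:15981152-16041796, or 60.6 kb, with 19 relaxed summits. Of 2204 windows of that length over the arms, 34.8% held no thresholded summit, so an empty stretch of this size was common in these lists. The nearest thresholded summits were outside, 11728 bp upstream of srp with a pooled signal of 270.7 and 14948 bp downstream of the last pnr TSS with 246.5.

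At srp, 1 relaxed peak came close to the threshold. A relaxed peak with its summit at 15984645, 1507 bp upstream of the first srp TSS, had a pooled signal of 100.4, which is 98.6% of the lowest thresholded signal and rank 4703 in the pooled list. It was found in all 3 replicates, with 41.82, 21.59 and 31.24, and was in none of the top lists. The other relaxed summits of srp reached 50.1 at most. The top lists of replicates 1, 2 and 3 had 0 summits at srp, and the whole lists 11, 6 and 6 (7.67 ± 2.89, n = 3).

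At GATAe the highest relaxed peak, 2960 bp upstream, had a pooled signal of 81.65 (80.2% of the lowest thresholded signal). It was found in replicates 1 and 3, with 27.35 and 39.06, and not in replicate 2. At pnr the highest, 86 bp upstream of the first TSS, had 53.93 (53%), with 14.95 in replicate 1 and 37.24 in replicate 3, and again none in replicate 2. Each was in the top list of replicate 3 alone. The whole lists had 9, 2 and 10 summits at GATAe (7 ± 4.36, n = 3) and 8, 3 and 7 at pnr (6 ± 2.65, n = 3), lowest in replicate 2 for both.

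**Figure D3:**
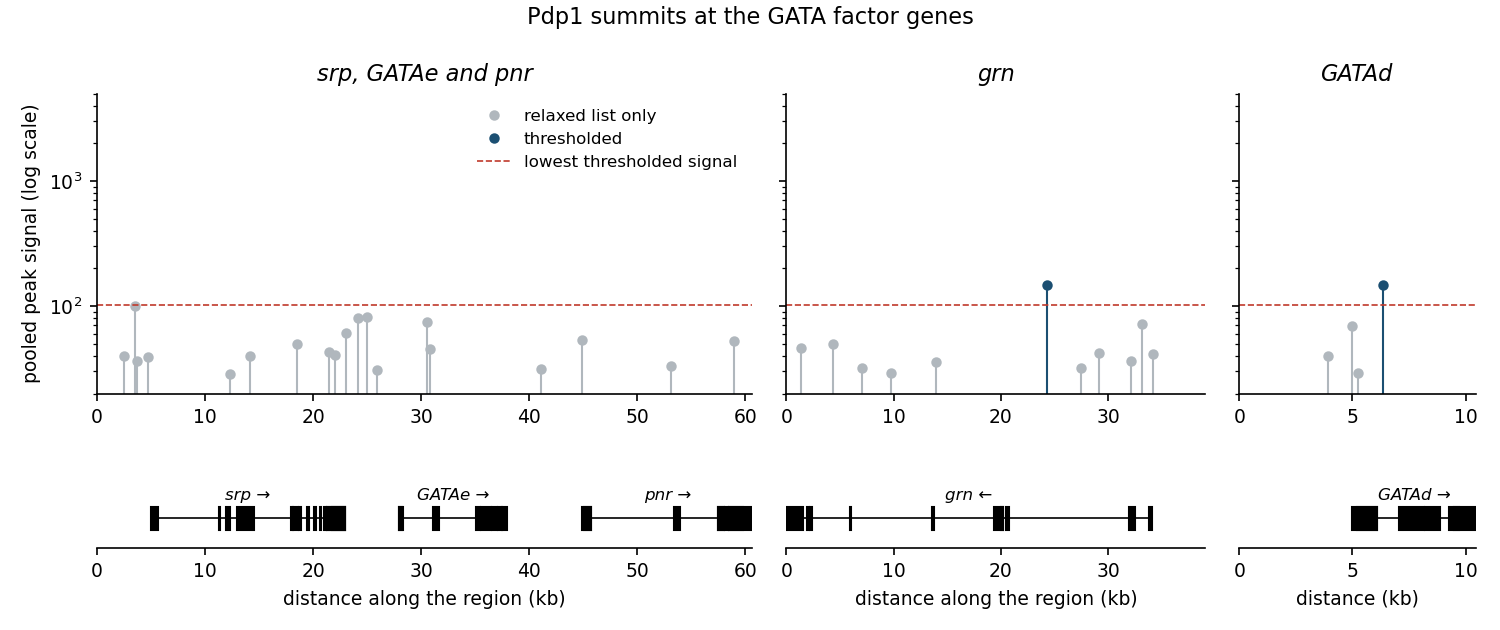
Pooled peak signal (vertical axis, log scale) of summits along the regions of srp, GATAe and pnr, of grn and of GATAd, against distance in kb from the left end of each region, with gene models below. Blue points are thresholded, grey points are in the relaxed list only, and the dashed line is the lowest thresholded signal, 101.8. One point each at grn and GATAd lies above the line, and the srp point at 100.4 lies just under it.

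Each of the 7 genes had a relaxed summit below the threshold near at least 1 of its start sites, but not every start site had one. Such a summit may be background, since the relaxed list holds both peaks and background. The nearest relaxed summit was 1993 bp from the first ush TSS and 2059 bp from the first GATAe TSS. At the later srp TSSs it was 1068, 638 and 558 bp away. Within 500 bp of a gene's own TSS there were 10 relaxed summits below the threshold, spread over all 7 genes, with pooled signals from 29.36 at GATAd to 90.68 at ush. The share of all protein-coding genes with such a summit was not counted, so nothing is read from this spread. Replicate 1 held 9 of the 10, replicate 3 held 7 and replicate 2 held 0. Over the genome, relaxed promoter summits below the threshold were found in 68.3%, 27.5% and 62.1% of cases in replicates 1, 2 and 3, and other relaxed summits below the threshold in 55.6%, 41.2% and 44.5%. Replicate 2 was the lowest for both kinds, and its gap to the other lists was wider at promoters. This comparison was made after the values were seen.

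GATA hexamers, the kind of site that GATA factors bind, were searched at the summits. Within 50 bp, 2 of the 15 windows held one, beside 21.0% of all 4622 thresholded windows. Summit 12 has TGATAA 19 to 24 bp to the right of the summit, and summit 13 has TTATCT, the reverse complement of AGATAA, 44 to 49 bp to its left. The windows of grn and GATAd hold none, and the relaxed peak upstream of srp has AGATAA 25 to 30 bp to the left of its summit. In windows of 251 bp, a width added after the values were seen, 6 of 15 ush windows held a hexamer, beside 42.4% of all.

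Both PAR-type octamers, TTACGTAA and TTATGTAA, are sites that Pdp1 and related factors are known to bind. Neither was within 50 bp of any of the 17 summits, where 1.19% of all thresholded windows held one. At that share 17 windows are too few to read anything from a count of 0. The DRE octamer TATCGATA was at 0 of the 17 too, with 2.23% of all. The 251 bp printed for the strongest ush peak contain none of these octamers and no GATA hexamer. The absence says only that these letters are not in the window.

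**Figure D4:**
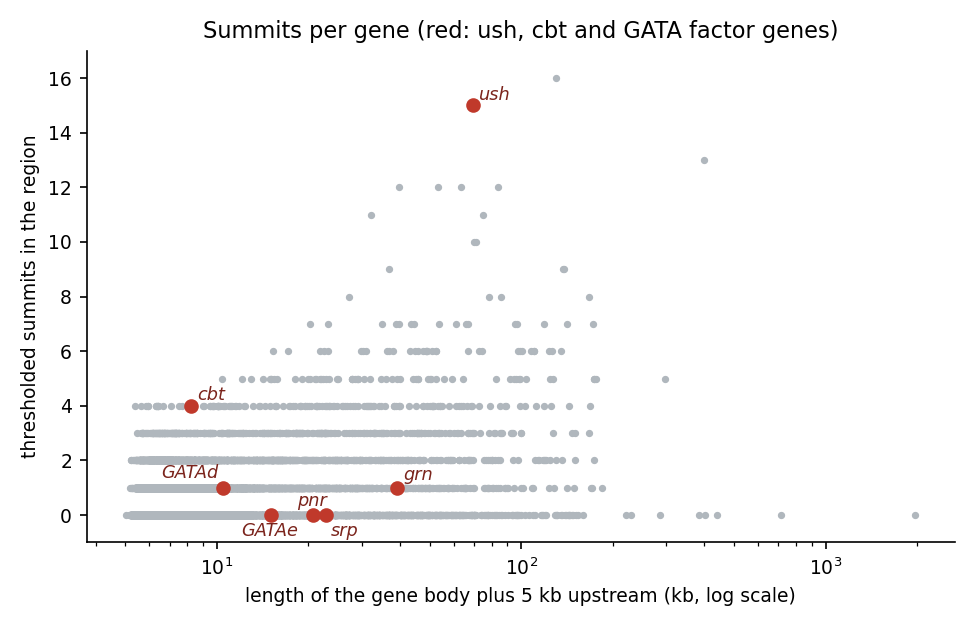
Thresholded summits per gene (vertical axis) against the length of the gene body plus 5 kb upstream (horizontal axis, kb, log scale) for all 13945 protein-coding genes in grey, with ush, cbt and the GATA factor genes in red. The point of ush at 15 is topped by 1 grey point at 16, and the GATA factor genes lie at 0 or 1.

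Genes with longer regions had more summits, from a median of 0 under 10 kb to 2 at 80 kb and over, and ush had the highest count of its own length class. Of the 390 genes with regions of 40 to 80 kb, 60.5% had a summit, with a median of 1, a 90th percentile of 4 and a maximum of 15, which is ush. The 5 genes most like ush by the summed difference of their top-list counts over the 3 replicates were CG1677, shn, Raf, CHES-1-like and kirre, with differences of 6, 7, 9, 9 and 11 summits. Genes that share a summit with ush were left out of this ranking.

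Of these, CG1677 had 16 thresholded summits over 129.7 kb, or 1.23 per 10 kb. The zinc finger gene shn, which acts in Dpp signalling, had 12 over 63.31 kb (1.9 per 10 kb), and Raf, a kinase of the MAPK pathway, had 12 over 53.41 kb (2.25 per 10 kb). The forkhead gene CHES-1-like had 11 over 32.05 kb (3.43 per 10 kb). The myoblast fusion gene kirre had 13 over 399.1 kb (0.326 per 10 kb). Per length, CHES-1-like and Raf were above the 2.16 of ush. The highest peaks of the 5 had pooled signals of 800.5, 402.6, 1248, 592.9 and 487.4. The strongest ush peak had 3369, but ush was chosen in part for this peak, so the comparison tests nothing.

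Genes around the FOG and GATA proteins were described from 7 lists. The list of their cofactors had a summit at 6 of 8 genes (75%), beside 37.7% of all genes and 50.4% of genes with regions of 10 to 20 kb. It was led by Mi-2, a chromatin remodeller of the NuRD complex, with a highest pooled signal of 664, and by HDAC1, a histone deacetylase (290.8), Bx, a LIM-only protein that joins GATA complexes (285), and CtBP, a corepressor that binds FOG proteins (175.4). The remaining genes with a summit were Ssdp (132.2) and MTA1-like (123.8), and Caf1-55 and Chi had none. MTA1-like had no summit in the top list of any replicate, and CtBP had none in that of replicate 2. The list's median was 1 summit per gene, against 0 over all genes, and its median region was 13.6 kb, against 7.17 kb. In the top lists of replicates 1, 2 and 3 the counts were 5, 4 and 5 genes, where all protein-coding genes gave 5258, 4950 and 5174 of 13945.

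Amnioserosa and dorsal closure genes, a process in which pnr, ush and cbt are all known to act, had a summit at 10 of 16 (62.5%), and at 11, 9 and 11 in the top lists. Mad, the effector of Dpp signalling, had the highest pooled signal (414.8), followed by the ligand gene dpp (303.8), the JNK phosphatase gene puc (297.4) with 5 summits, and the JNK pathway kinase gene msn (276.4) with 9. The others with a summit were peb (259.6), kay (241.9), the receptor gene put (237.8), hep (146.3), the receptor gene tkv (118.6) and the effector gene Med (115.6). The JNK gene bsk, and tup, zen, Kr, Jra and zip had no thresholded summit. The median region of this list was 17.4 kb, and 50.4% of genes with regions of 10 to 20 kb had a summit. The part of gene length in the list's share was not tested.

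The lists of blood, heart, notum, and endoderm and fat body genes had shares from 18.2% to 33.3%, beside the 37.7% of all genes. Their median regions were 18.9, 8.67, 14.1 and 8.41 kb. By region length, 32.2% of genes under 10 kb and 50.4% at 10 to 20 kb had a summit. Blood cell genes had 5 of 15 (33.3%; 4, 4 and 5 in the replicates), led by zfh1, a zinc finger homeodomain factor (364.3), Pxn, a peroxidasin (164), kn, an EBF-type factor (146.3), and Hml, hemolectin (141.7). Supported in both other replicates, 3 blood cell genes were left without replicate 1 or replicate 3. Heart and dorsal mesoderm genes had 3 of 11 (27.3%; 4, 2 and 3), namely Mef2, Doc2 and tin. Mef2, the muscle differentiation factor, had 5 summits and a highest pooled signal of 1788, rank 18 in the pooled list. Doc2, a T-box factor, had 191.4, and the heart factor tin had 128.8.

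Notum prepattern and proneural genes had 2 of 11 (18.2%), sr with 321 and caup with 103.5. The top lists had 2 each, sr and wg in replicate 1 and sr and caup in the others. With support asked of both other replicates, the count was 1 without replicate 2 or replicate 3. The proneural genes ac and sc, which pnr and ush are known to regulate, had no summit in the thresholded list. Endoderm and fat body genes had 3 of 12 (25%), Lsp2 (372.6), fkh (296.6) and Adh (260). By replicate this list varied widely, at 3, 1 and 6 genes, and 1 gene was left without replicate 1 or replicate 3 when support was asked of both others. The Sp/KLF and sugar sensing genes, chosen around cbt, had 5 of 10 (50%). Their median region was 19.2 kb, and 50.4% of all genes with regions of 10 to 20 kb had a summit. The list was led by bigmax, a partner of the sugar sensor Mondo, with 3 summits and 324, and by luna (271.4), dar1 (230.8) and Spps (217.3). Each top list had 5 too, but not the same genes, since replicate 2 lacked Spps and had Mondo. With support asked of both other replicates, the count was 3 without replicate 1 or replicate 3. Mondo, sug, Klf15, Sp1 and btd had no thresholded summit.

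**Figure D5:**
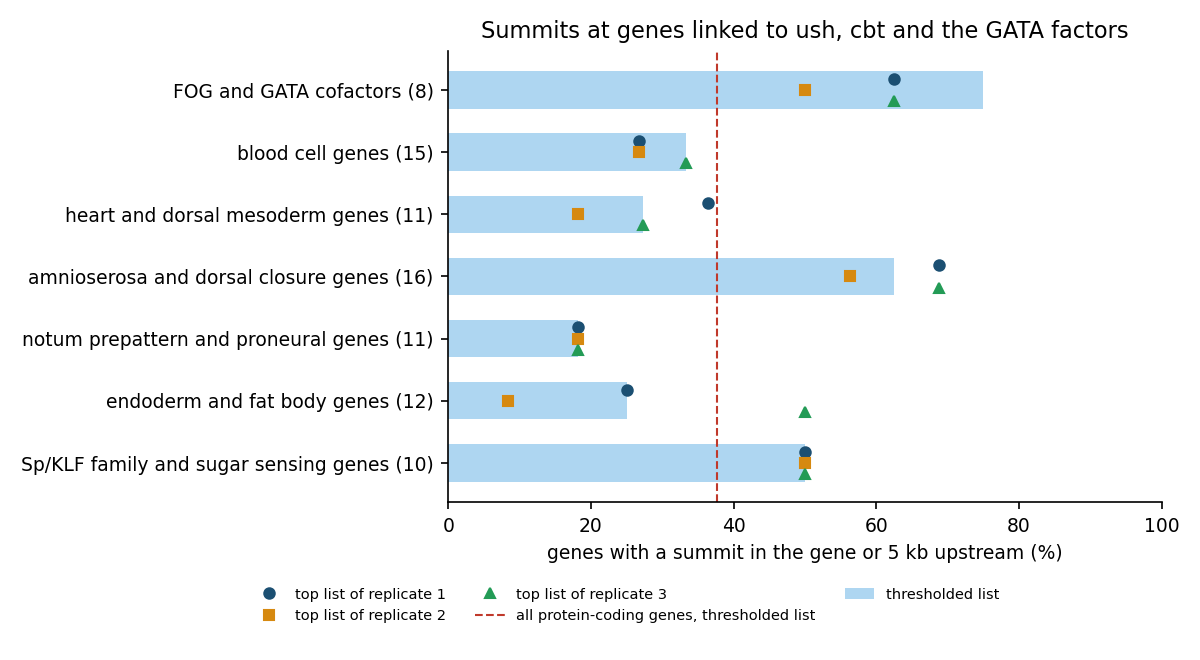
Share of genes (horizontal axis, percent) with a summit in the gene body or 5 kb upstream, for 7 lists with the number of genes in brackets. Bars are the thresholded list, circles, squares and triangles the top 4622 peaks of replicates 1, 2 and 3, and the dashed line is the share of all protein-coding genes, 37.7%. The cofactor and dorsal closure lists lie to the right of the line in all 3 replicates. The line takes no account of region length.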

How the data were processed

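The authors deposited narrowPeak lists for each of the 3 replicates, a relaxed list on the pooled replicates and a thresholded list, in dm6 and dm3 coordinates. The pooled relaxed list is titled as peaks and background. Per the listings deposited beside the lists, these were inputs and outputs of the irreproducible discovery rate procedure. The signal value of each peak is the authors' own. It is not scaled between lists and served to describe and rank peaks. The software for alignment and peak calling is not given in the sources used here. Read numbers were not analysed, so depth is unknown. The 5 dm3 lists were not used.

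Summits (start plus offset) of the 5 dm6 lists were placed on Ensembl release 115 gene models and the Release 6 genome with Python 3.11.15, pandas 2.3.3 and numpy 2.4.6, and figures were drawn with matplotlib 3.10.9. A replicate's signal for a summit is that of its closest summit, at most 100 bp away. Support means a summit within 100 bp among a list's top 4622. Promoters reach 500 bp from a protein-coding TSS. The counting was tested on simulated data.

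The genes and lists were chosen with earlier results of these data known, and there is 1 group, so no test was run and shares over all genes or summits are given as the background of the counts. Named genes are the 7 chosen, those with the TSS nearest to their summits, up to 4 per list by highest signal, and the 5 most like ush. Other list members are named to complete a count or for a known role, and were chosen after their values were seen. Not every list is named in full. Biological replicates are as the labels give them. SDs cover their spread and the lists' differences in scale.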

Additional observations from a re-analysis of the deposited data

How the results depend on the processing

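Of 160 alternative values over 21 results, 117 kept to within the replicate spread, or for counts within 1.5 times, and 43 moved further. The mean signal of the strongest ush peak leaving out 1 replicate at a time, 1060 to 1198, was counted as kept. Such a mean cannot leave the spread of the same 3 replicates, so nothing is read from it. The share of all genes with a summit moved with most settings and is given with each. With peaks at or above the median thresholded signal (23.9% of all genes, against 37.7%), ush had 9 summits, the GATA factor genes with a summit fell from 2 to 0, blood cell genes from 5 to 1 and notum genes from 2 to 1. With gene bodies alone (12%), cbt had 1 summit, blood cell genes 3, heart genes 1, endoderm genes 0 and Sp/KLF genes 3. With 10 kb upstream (48.2%), heart genes had 5 and notum genes 4. Kept to summits in all 3 top lists (24.6%), there were 1 GATA factor gene (grn), 3 blood cell, 1 notum, 1 endoderm and 3 Sp/KLF genes. Leaving out replicate 1, 2 or 3 (26.6%, 29.8% and 27.2%) gave 1 to 2 GATA factor genes, 3 to 4 blood cell, 1 to 2 notum, 1 to 3 endoderm and 3 to 5 Sp/KLF genes. GATAd was lost without replicate 1 or replicate 3, since each of these settings asks for a summit in replicate 2. The cofactor list fell from 6 of 8 genes to 4 with the stronger peaks, with gene bodies alone and with all 3 top lists. Dorsal closure genes fell from 10 of 16 to 7, 8 and 7, respectively. Without replicate 1, 2 or 3 the lists had 4, 5 and 4 and 8, 9 and 8 genes, and with 10 kb upstream 7 and 13. All these counted as kept, at a limit of 1.5 times. Promoter summits along ush were 0 within 200 bp and 5 within 1000 bp. Those with a GATA hexamer were 1 within 25 bp and 4 within 100 bp. Between 0 and 4 genes had more summits than ush. No paired analysis was possible because there is a single group. Depth is unknown, so a summit absent from a replicate list is not shown to be absent from the embryos.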
